A study of Mus musculus with 12 samples.

Results

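The sirtuins Sirt1 to Sirt7 were followed in bone marrow derived macrophages (BMDMs) grown with a PARP inhibitor or with an NAD derivative. Their 7 genes were found by Ensembl ID among the 35275 genes counted in each of 12 libraries, and the choice of genes used no measured value. All 7 had counts in every library and passed the filter on low counts. Wildtype mouse bone marrow cells had been cultured over 6 days with M-CSF and IL-4, each at 20 ng/ml, and with IL-10 at 10 ng/ml, renewed at day 3, and DMSO, olaparib or MNA (N-methylnicotinamide) was present throughout. Each of the 3 groups had 4 libraries numbered 1 to 4, and the study's methods name male and female mice 6 to 10 weeks old as the source of bone marrow. The strain, the sex of each culture and the dose of olaparib or MNA in these cultures are not given in the sources used here. Olaparib and MNA were thus present during differentiation itself, so each comparison is between cells that matured under different conditions.

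Sirtuins are enzymes that remove acetyl and other acyl groups from lysines of proteins, and each round of the reaction consumes NAD and releases nicotinamide. Sirt1, Sirt6 and Sirt7 act mainly in the nucleus, Sirt2 mainly in the cytoplasm, and Sirt3, Sirt4 and Sirt5 in mitochondria. PARP enzymes, which olaparib blocks, draw on the same NAD, and MNA is the methylated form of nicotinamide. In macrophages Sirt1 is known as a deacetylase of the p65 subunit of NF-κB, and sirtuins are known to tie the use of NAD to mitochondrial metabolism and inflammatory gene expression. Only transcript levels were measured here, not protein, enzyme activity or NAD.

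Library totals ran from 21146291 to 31446849 reads in genes. The library labelled MNA replicate 2 stood apart from the other 3 MNA libraries and lay with the DMSO libraries on the first 2 principal components, which held 49.8% and 24.9% of the variance. It was kept under its label, and the calls on sirtuins against DMSO are given with it and without it. All 9 macrophage markers were counted in every group, with summed levels of 3919 to 5068 CPM (reads scaled to library size) in DMSO, 8537 to 10268 in olaparib, 5701 to 7538 in MNA replicates 1, 3 and 4, and 3642 in MNA replicate 2. Lyz2 was the largest member of the sum in DMSO and olaparib, with means of 1918 and 6009 CPM. Cd68 went the other way, from a mean of 1228 CPM in DMSO to 839 in olaparib. Markers of alternative activation, the state that IL-4 induces, summed to 32877 to 53277 CPM in DMSO, 18813 to 30340 in olaparib, 942 to 1401 in MNA replicates 1, 3 and 4, and 31732 in MNA replicate 2. Most of the sum in DMSO and olaparib was 1 gene, Chil3, with means of 36703 and 21862 CPM.

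The 7 genes lie on 5 chromosomes of the GRCm38 assembly. Sirt1 (ENSMUSG00000020063) is at chr10:63319005-63381704 on the minus strand, and Sirt6 (ENSMUSG00000034748) is on the same chromosome at chr10:81621785-81627797, also minus. Sirt2 (ENSMUSG00000015149) is at chr7:28766735-28788661 on the plus strand, and Sirt3 (ENSMUSG00000025486) is at chr7:140863666-140882309 on the minus strand. Sirt4 (ENSMUSG00000029524) is at chr5:115478010-115484725, minus strand. Sirt5 (ENSMUSG00000054021) is at chr13:43365496-43395203, plus strand. Sirt7 (ENSMUSG00000025138) is at chr11:120618372-120625240, minus strand. All 7 are annotated as protein coding.

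Sirt1 had the largest log2 difference of the family from DMSO, in size, in either treatment, and the stretch before its start site is shown because it carries a motif that no other sirtuin window held. The sequence is from RefSeq (GRCm38.p6, chr10:63339051-63339285, minus strand), runs 5′ to 3′ over 235 bases, and ends where annotated exon bases begin, 15 bases before the RefSeq start. It lies within the longer Sirt1 gene span of GENCODE, between exons. Capitals mark CACGTG, the E-box, which reads the same on both strands.
Sirt1: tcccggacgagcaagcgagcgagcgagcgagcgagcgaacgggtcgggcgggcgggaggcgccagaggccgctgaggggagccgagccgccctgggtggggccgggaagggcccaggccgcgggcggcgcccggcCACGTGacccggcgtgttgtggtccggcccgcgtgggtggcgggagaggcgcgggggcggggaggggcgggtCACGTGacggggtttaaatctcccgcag
The E-boxes begin 115 and 43 bases before the start. Of 32851 mouse windows of the 250 bases before a RefSeq start, 6.02% held the E-box and 0.429% held it at least 2 times. Among the 9 sirtuin windows, since Sirt3 and Sirt6 have 2 starts each, only that of Sirt1 held it. The GC box GGGCGG, searched on both strands, was in 6 of the 9 sirtuin windows and in 32.7% of all windows, and the core of the NRF1 motif, CGCATGCG, was in 1 window each of Sirt6 and Sirt7 and in 1.55% of all windows. The full cyclic AMP element, TGACGTCA, was in none of the 9 and in 1.55% of all windows. The Sirt1 window was rich in G and C, at 79.2% against a median of 52.4% over all windows. These matches describe the letters only.

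Sirt2 was the most abundant sirtuin transcript in these cells and Sirt5 the least. Levels of different genes were compared as CPM per kilobase of exon. In DMSO these levels were 22.5 ± 0.70 for Sirt2, 10.4 ± 0.58 for Sirt7, 8.43 ± 0.65 for Sirt1, 3.88 ± 0.34 for Sirt6, 2.13 ± 0.16 for Sirt4, 0.941 ± 0.097 for Sirt3 and 0.289 ± 0.061 for Sirt5 (SD, n = 4). No neighbours in that order overlapped between their 4 DMSO libraries, and the nearest were Sirt7 (9.60 to 10.96) and Sirt1 (7.91 to 9.35). The order was the same in olaparib. In MNA replicates 1, 3 and 4 Sirt1, at 4.18 ± 0.51 CPM per kilobase (SD, n = 3), no longer ranked above Sirt6, at 4.35 ± 0.23, and their ranges of 3.59 to 4.496 and 4.12 to 4.58 overlapped. In MNA replicate 2 Sirt1 was at 8.38 and Sirt6 at 3.87 CPM per kilobase, as in DMSO. Sirt5 was measured from 26 to 66 reads a library and Sirt3 from 78 to 222, so both were far less precise than Sirt2, with 2168 to 3683.

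**Figure D1:**
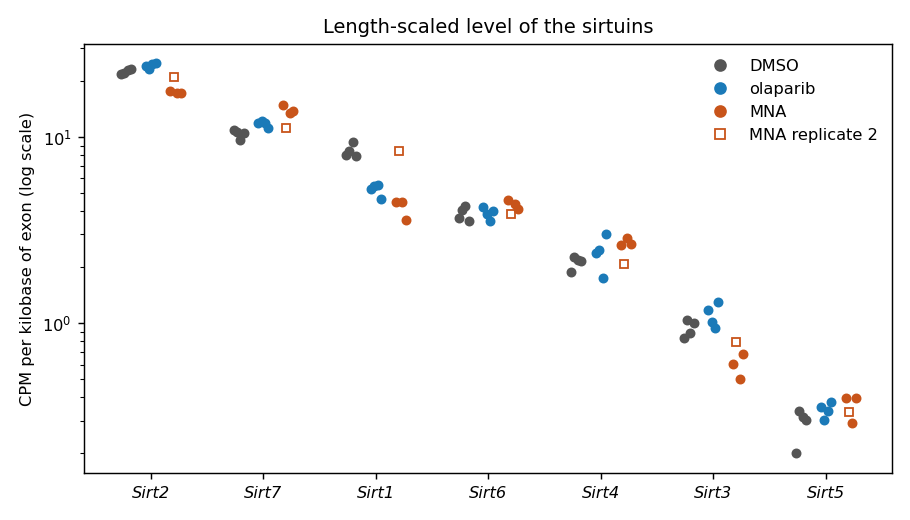
Level of each sirtuin in CPM per kilobase of exon (vertical axis, log scale) in every library, ordered by the DMSO mean, with DMSO in grey, olaparib in blue and MNA in orange. Sirt2 was the most abundant at 22.5 in DMSO and Sirt5 the least at 0.289, and Sirt1 came down to the level of Sirt6 in MNA replicates 1, 3 and 4 while MNA replicate 2 (open square) stayed at 8.38.

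Within each gene, levels are given below as CPM normalized by TMM, and differences as log2 fold changes from edgeR's quasi-likelihood test with p-values adjusted by the Benjamini-Hochberg method over all genes tested. Olaparib and MNA were compared with the same 4 DMSO libraries. In bulk RNA, fewer cells of a type and less RNA per cell cannot be told apart. With olaparib, 1 of the 7 sirtuins was called down (Sirt1) and none was called up in the fit of all 12 libraries, at an adjusted p under 0.05. None was higher at an unadjusted p under 0.05 or by DESeq2 either. In that fit 27.0% of all 12849 genes tested were called, and 41.0% had groups whose libraries did not overlap, as did 2 of the 7 sirtuins, Sirt1 and Sirt7. With MNA, 3 sirtuins were called down (Sirt1, Sirt2, Sirt3) and 1 up (Sirt7), against 28.6% of all genes called. The MNA and DMSO libraries did not overlap for 3 sirtuins, Sirt2, Sirt3 and Sirt7, against 12.4% of all genes. Without MNA replicate 2, 13023 genes were tested. With olaparib Sirt1 was then called down and Sirt7 up, against 43.7% of genes called and 40.8% without overlap, and the same 2 sirtuins did not overlap. With MNA the same 4 sirtuins were called in the same directions, against 54.1% of genes called. The libraries of 5 sirtuins did not overlap, those 4 and Sirt4, against 54.2% of genes. The median log2 fold change of the sirtuins was 0.17 for olaparib and 0.12 for MNA with all 12 libraries, and the median over all genes tested was 0.00 in both.

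**Figure D2:**
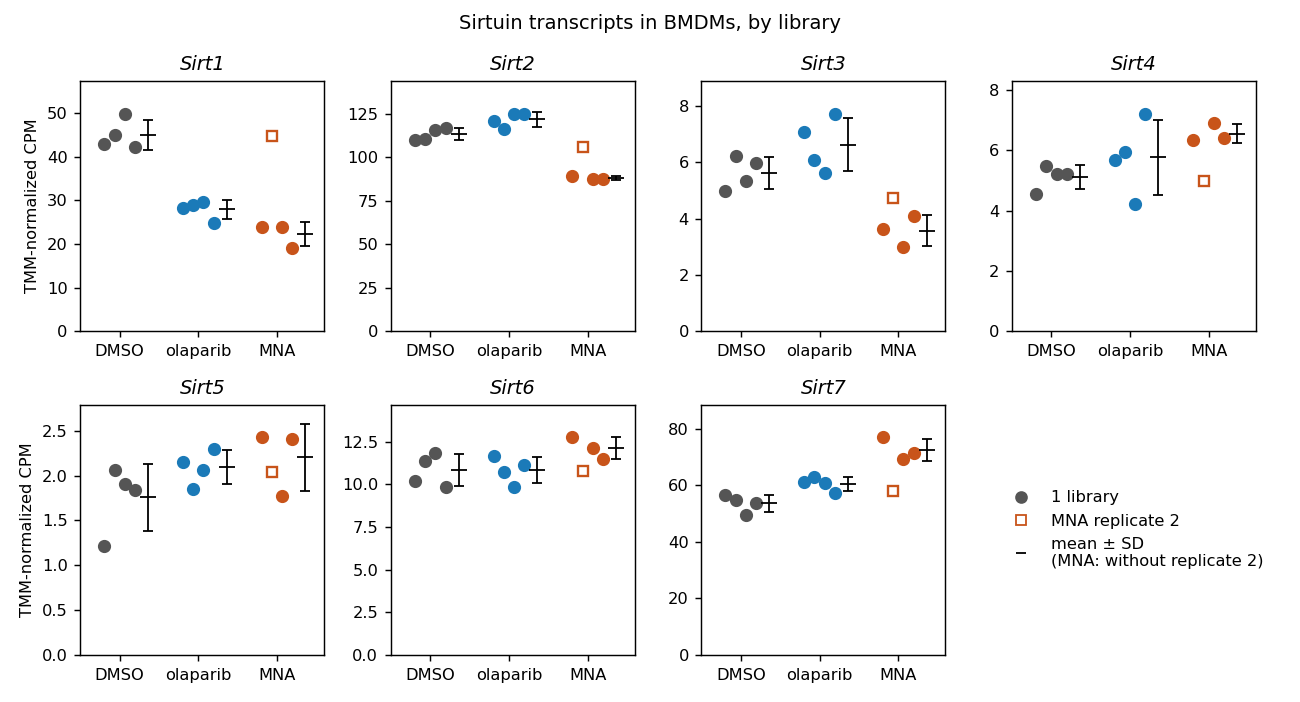
TMM-normalized CPM of each sirtuin (vertical axis, from 0) in each of the 12 libraries, with bars for the mean ± SD of each group, MNA replicate 2 as an open square and left out of the MNA bar. Sirt1 sat between 42.2 and 49.9 CPM in DMSO, between 24.8 and 29.5 in olaparib and between 19.1 and 24.0 in MNA replicates 1, 3 and 4, while MNA replicate 2 was at 44.7.

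Sirt1, the best studied nuclear deacetylase of the family, fell in both treatments. It measured 42.8, 44.9, 49.9 and 42.2 CPM in DMSO replicates 1 to 4, 28.2, 29.0, 29.5 and 24.8 CPM in olaparib replicates 1 to 4, and 23.8, 44.7, 24.0 and 19.1 CPM in MNA replicates 1 to 4. Every olaparib library was below every DMSO library, and so was every MNA library other than replicate 2, which lay within the DMSO range. With olaparib the log2 fold change was -0.69 (SE 0.20, 95% CI -1.13 to -0.24, adjusted p = 0.0279), a level 0.621 times that of DMSO. The size was the same without MNA replicate 2, at -0.69 (SE 0.08, adjusted p = 2.52e-05). With MNA it was -0.69 with all 12 libraries (SE 0.20, 95% CI -1.13 to -0.24, adjusted p = 0.0303) and -1.01 without replicate 2 (SE 0.09, 95% CI -1.22 to -0.81, adjusted p = 8.84e-07), 0.495 times the DMSO level. Against the DMSO library of the same number Sirt1 was lower in 4 of 4 olaparib libraries, by log2 differences of -0.76 to -0.60, and in 4 of 4 MNA libraries, of which that of replicate 2 differed least, at -0.0054.

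The calls on Sirt1 in the fit of all 12 libraries changed with the libraries left in. The olaparib call was lost on leaving out any 1 olaparib library or DMSO replicate 2, 3 or 4, with adjusted p up to 0.0767. The MNA call was lost without 1 of MNA replicates 1, 3 and 4, or of DMSO replicates 2, 3 and 4, with adjusted p up to 0.0899. With MNA replicate 2 left out, both calls stood on leaving out any further library in turn (11 of 11 each), with log2 fold changes of -0.73 to -0.64 for olaparib and -1.06 to -0.91 for MNA. The common dispersion, which measures the spread within groups, was 0.0333 with MNA replicate 2 and 0.0123 without it.

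Sirt7, a nucleolar deacetylase tied to the transcription of ribosomal RNA genes, moved opposite to Sirt1. It measured 56.4, 54.9, 49.4 and 53.8 CPM in DMSO replicates 1 to 4, 61.1, 62.8, 60.9 and 57.2 CPM in olaparib replicates, and 76.9, 57.8, 69.3 and 71.3 CPM in MNA replicates. All olaparib and all MNA libraries lay above all DMSO libraries, with olaparib replicate 4 and MNA replicate 2 nearest to DMSO. Sirt7 rose with MNA by a log2 fold change of 0.36 with all 12 libraries (SE 0.08, adjusted p = 0.0160) and 0.43 without replicate 2 (SE 0.06, 95% CI 0.31 to 0.56, adjusted p = 3.39e-05). The difference with olaparib was 0.17, which did not pass with all 12 libraries (SE 0.08, adjusted p = 0.128) and passed without MNA replicate 2 (SE 0.06, 95% CI 0.05 to 0.29, adjusted p = 0.0219) and with the 2 groups fitted alone (adjusted p = 0.0278). With MNA and DMSO fitted alone the MNA call did not pass (adjusted p = 0.0645), and neither did those on Sirt1, Sirt2 and Sirt3 (adjusted p = 0.0828, 0.0647 and 0.0721). The MNA call was also lost without MNA replicate 3 or 4 (adjusted p up to 0.0538), but with replicate 2 left out it stood without each further library. The olaparib call made without MNA replicate 2 was lost on also leaving out DMSO replicate 3, DMSO replicate 4 or olaparib replicate 2, with adjusted p up to 0.0712. The exons of Sirt7 share 124 bases, 2.41% of their length, with Mafg on the same strand, and Mafg differed by -0.28 with MNA without replicate 2.

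The ratio of reads of Sirt7 to those of Sirt1 in a library needs no scaling between libraries. It was 0.991 to 1.32 in DMSO, 2.06 to 2.30 in olaparib and 2.89 to 3.73 in MNA replicates 1, 3 and 4. These 3 sets did not overlap, and MNA replicate 2, at 1.29, lay within DMSO.

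Sirt6, a nuclear enzyme that acts on histones at telomeres and at genes of glycolysis, was not called in any comparison. It measured 10.2, 11.4, 11.9 and 9.84 CPM in DMSO, 11.7, 10.7, 9.84 and 11.1 CPM in olaparib and 12.7, 10.8, 12.1 and 11.5 CPM in MNA. The groups overlapped. The log2 fold change with olaparib was 0.00 (95% CI -0.20 to 0.21, adjusted p = 0.989), and its sign changed with the scaling and the libraries used. With MNA it was 0.12 (95% CI -0.08 to 0.33, adjusted p = 0.334) and, without replicate 2, 0.16 (95% CI -0.05 to 0.37, adjusted p = 0.184). Differences larger than these bounds are outside the intervals, and smaller ones could not be seen.

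Sirt2, the cytoplasmic tubulin deacetylase, fell with MNA and did not pass the test with olaparib. It measured 109.8, 110.7, 115 and 117 CPM in DMSO, 121, 116, 125 and 125 CPM in olaparib and 89.2, 106, 87.3 and 87.2 CPM in MNA. MNA replicates 1, 3 and 4 lay within 2 CPM of each other, well below DMSO, and replicate 2 stood between them and DMSO. The log2 fold change with MNA was -0.29 (SE 0.07, 95% CI -0.44 to -0.15, adjusted p = 0.0165) with all 12 libraries and -0.37 (SE 0.05, 95% CI -0.48 to -0.26, adjusted p = 4.35e-05) without replicate 2, 0.775 times the DMSO level. With olaparib it was 0.10 (95% CI -0.04 to 0.25, adjusted p = 0.263), and each olaparib library was above the DMSO library of its number. The MNA call was lost without MNA replicate 1, 3 or 4 (adjusted p up to 0.0579), and with replicate 2 left out it stood without each of the other 11 libraries. Of the exon bases of Sirt2, 42 lie opposite exons of Nfkbib, which differed by -0.37 with MNA without replicate 2.

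Sirt3, the main deacetylase of the mitochondrial matrix, also fell with MNA. It measured 4.97, 6.23, 5.33 and 5.97 CPM in DMSO, 7.07, 6.09, 5.64 and 7.73 CPM in olaparib and 3.62, 4.73, 3.01 and 4.10 CPM in MNA. All 4 MNA libraries were below all 4 DMSO libraries, with MNA replicate 2 the nearest, and the olaparib libraries overlapped those of DMSO. The log2 fold change with MNA was -0.54 (SE 0.16, 95% CI -0.89 to -0.19, adjusted p = 0.0292) with all 12 libraries and -0.66 (SE 0.16, 95% CI -0.998 to -0.32, adjusted p = 0.00302) without replicate 2, 0.634 times the DMSO level. With olaparib it was 0.24 (95% CI -0.10 to 0.58, adjusted p = 0.272). Without 1 of MNA replicates 1, 3 and 4 or of DMSO replicates 2, 3 and 4 the MNA call did not pass (adjusted p up to 0.0907), and with MNA replicate 2 left out it stood without each further library (adjusted p up to 0.0213). Of the 5973 exon bases of Sirt3, 418 lie opposite exons of Ric8a and 342 opposite exons of Psmd13, genes with a median of 2079 and 2410.5 reads a library. The libraries were made with a kit that keeps strand, but which strand column was counted is not given in the sources used here. Ric8a itself differed by -0.33 and Psmd13 by -0.09 with MNA without replicate 2, and their part in the result for Sirt3 was not tested.

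The mitochondrial enzymes Sirt4, known as an inhibitor of glutamate dehydrogenase, and Sirt5, which removes succinyl and malonyl groups, were not called with all 12 libraries. Sirt4 measured 4.55, 5.47, 5.23 and 5.21 CPM in DMSO, 5.69, 5.93, 4.21 and 7.21 CPM in olaparib and 6.33, 4.98, 6.91 and 6.39 CPM in MNA. MNA replicates 1, 3 and 4 were above every DMSO library, replicate 2 was within the DMSO range, and olaparib held both the lowest and the highest of the 12 values. The log2 fold change of Sirt4 with MNA was 0.26 (SE 0.16, adjusted p = 0.221) with all 12 libraries and 0.35 (SE 0.16, 95% CI 0.01 to 0.69, adjusted p = 0.0745) without replicate 2. It passed when olaparib replicate 3 or 4 was left out as well (adjusted p = 0.0326 and 0.0458), with the log2 fold change still at 0.35. With olaparib it was 0.17 (95% CI -0.18 to 0.53, adjusted p = 0.450).

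Sirt5 measured 1.22, 2.06, 1.91 and 1.84 CPM in DMSO, 2.15, 1.85, 2.06 and 2.30 CPM in olaparib and 2.43, 2.04, 1.78 and 2.41 CPM in MNA. DMSO replicate 1 was the lowest of all, and the other 11 libraries ran from 1.78 to 2.43 CPM with the groups mixed. The log2 fold change was 0.24 with olaparib (95% CI -0.18 to 0.67, adjusted p = 0.371) and 0.29 with MNA (95% CI -0.13 to 0.71, adjusted p = 0.261), and 0.31 with MNA without replicate 2 (adjusted p = 0.251), so that a difference was not detectable at this depth. Of the 31-base words in the exons of Sirt5, 16.3% also occur in other annotated transcripts on the same strand, and such reads may not be counted for Sirt5.

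**Figure D3:**
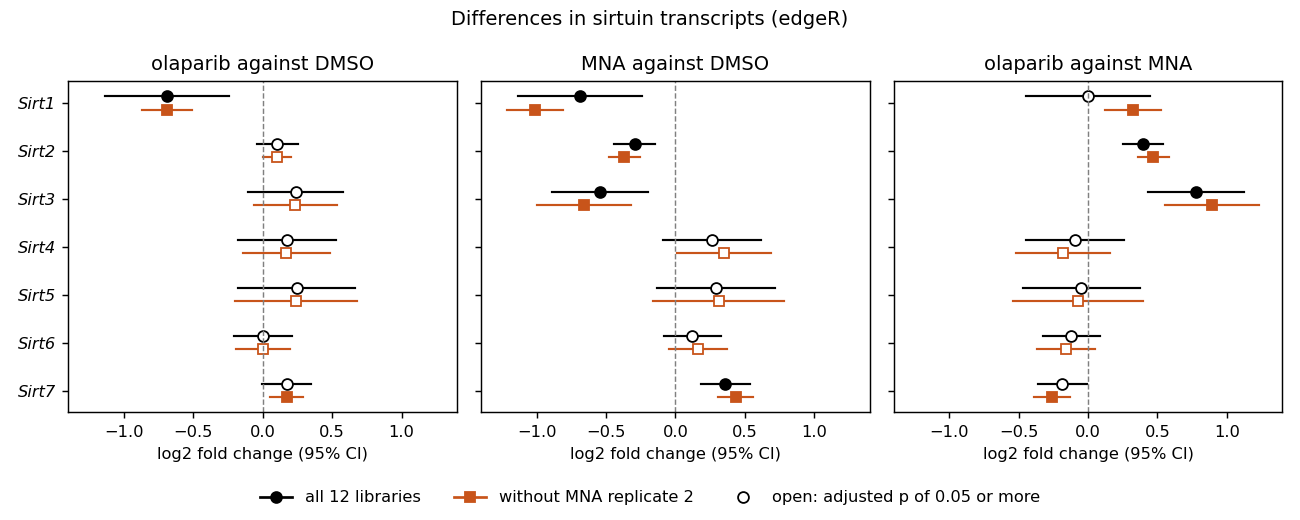
Log2 fold change of each sirtuin with its 95% CI (horizontal axis) in the 3 comparisons, from the fit of all 12 libraries (black circles) and the fit without MNA replicate 2 (orange squares), filled where the adjusted p was under 0.05. The olaparib estimates hardly moved between the fits while their intervals narrowed, and the MNA estimate of Sirt1 moved from -0.69 to -1.01.

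Sirt2 and Sirt3 differed between the treatments themselves, being higher with olaparib than with MNA. The log2 difference of Sirt2 was 0.40 (SE 0.07, 95% CI 0.25 to 0.54, adjusted p = 0.00192) and that of Sirt3 was 0.78 (SE 0.16, 95% CI 0.43 to 1.12, adjusted p = 0.00540) with all 12 libraries. Both genes had every olaparib library above every MNA library, replicate 2 included, and both calls stood on leaving out each of the 12 libraries. These 2 were the sirtuins called, against 21.8% of all genes, and the 2 that did not overlap, against 21.2%. None was called lower with olaparib than with MNA with all 12 libraries (1 at an unadjusted p under 0.05, Sirt7, and 0 by DESeq2).

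Without MNA replicate 2 the 2 treatments also differed in Sirt1 and Sirt7. Sirt2 was then higher with olaparib by 0.47 (adjusted p = 8.92e-06), Sirt3 by 0.89 (adjusted p = 4.74e-04) and Sirt1 by 0.32 (SE 0.09, 95% CI 0.12 to 0.52, adjusted p = 0.0131), and Sirt7 lower, at -0.26 (SE 0.06, 95% CI -0.39 to -0.13, adjusted p = 0.00296). These were 4 of the 7 sirtuins, against 42.3% of all genes called, and the libraries of the same 4 did not overlap, against 46.3% of genes. Sirt1 lost its call on also leaving out MNA replicate 4 (adjusted p = 0.0850), the lowest of the MNA libraries. With all 12 libraries the difference of Sirt1 was 0.00 (95% CI -0.45 to 0.44, adjusted p = 0.997) and that of Sirt7 was -0.19 (adjusted p = 0.122). For Sirt4 the difference was -0.09 (95% CI -0.45 to 0.26), for Sirt5 -0.05 (95% CI -0.47 to 0.37) and for Sirt6 -0.12 (95% CI -0.33 to 0.09) with all 12 libraries, none past the threshold. Without MNA replicate 2 they were -0.18, -0.07 and -0.16, none past it either.

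As a share of the summed level per kilobase of the 7 genes, Sirt1 made up 17.3% ± 1.1 in DMSO and 10.7% ± 0.88 in olaparib (SD, n = 4), and 9.55% ± 1.0 in MNA replicates 1, 3 and 4 (SD, n = 3). Sirt7 made up 21.5% ± 1.6, 24.0% ± 1.1 and 32.2% ± 0.99 in the same groups. Sirt2 held 46.3% ± 1.1, 49.4% ± 1.5 and 39.9% ± 0.79. MNA replicate 2 had 17.6% Sirt1, 44.1% Sirt2 and 23.5% Sirt7. Sirt1 thus took the smallest share in MNA replicates 1, 3 and 4, where Sirt7 took its largest. Because shares sum to the whole, a fall of one gene raises the others.

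MNA replicate 2 lay within the DMSO range for Sirt1, Sirt4, Sirt5 and Sirt6. For Sirt2, Sirt3 and Sirt7 it lay between the DMSO range and that of the other 3 MNA libraries, at 106, 4.73 and 57.8 CPM. It was nearer to the DMSO mean than to the mean of the other MNA libraries for 6 of the 7 genes, all but Sirt5.

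Across the 12 libraries the levels of Sirt2 and Sirt3 went together (Pearson r = 0.907, log2 CPM, n = 12) and those of Sirt1 and Sirt7 went apart (r = -0.843). These values describe libraries that share 3 conditions and MNA replicate 2, and carry no test. The genes whose pattern was most like each sirtuin over the 12 libraries were Fem1b (r = 0.992) and Ythdf3 (0.987) for Sirt1, Smpdl3a and Sulf2 (both 0.984) for Sirt2, and Akr1b8 (0.956) and Smad7 (0.949) for Sirt3. For Sirt7 they were Faap100 (0.965) and Map3k14 (0.962), and for Sirt6 Cntrl (0.933) and Zfp868 (0.882). For the low Sirt4 and Sirt5 the best matches were weaker, at 0.907 for E430018J23Rik and 0.895 for Slc25a27, and at 0.879 for Cisd3 and 0.849 for Mettl8.

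Other genes of NAD metabolism and of protein deacetylation were counted from 4 lists. Counts are given for olaparib with all 12 libraries, where 27.0% of all genes were called, for MNA with all 12 (28.6%) and for MNA without replicate 2 (54.1%). Of 22 genes that supply NAD, 14 were tested, of which 2 were called up and 3 down with olaparib, 3 up and 1 down with MNA, and 3 up and 4 down with MNA without replicate 2. These 5, 4 and 7 of 14 lie near the shares of all genes. Haao, which makes the quinolinate precursor of NAD from tryptophan, rose from 0.440 ± 0.17 CPM in DMSO to 2.91 ± 0.38 with olaparib (log2 fold change 2.75, adjusted p = 0.00206) and 2.55 ± 0.86 with MNA without replicate 2 (2.57, adjusted p = 9.40e-06). Kynu, an enzyme of the same kynurenine pathway, rose from 0.672 ± 0.28 CPM to 6.89 ± 3.1 and 3.46 ± 0.26 (3.36 and 2.37, adjusted p = 0.00367 and 1.70e-04). Tdo2, which opens that pathway, fell with olaparib (0.271 ± 0.11 CPM, log2 fold change -1.73, adjusted p = 0.0189). Nnt, which passes electrons between the NAD and NADP pools of mitochondria, rose with MNA without replicate 2 from 25.4 ± 1.4 to 42.5 ± 6.1 CPM (0.74, adjusted p = 8.92e-06). Haao, Kynu and Tdo2 had means under 10 CPM in every group, so these large log2 values are of low transcripts.

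Of 10 other genes that consume NAD or remove nicotinamide, 7 were tested. With olaparib 2 were called up and 2 down, against 27.0% of all genes, with MNA 2 up and 1 down, against 28.6%, and with MNA without replicate 2 there were 2 up and 3 down, against 54.1%. Parp1, the main target of olaparib, measured 60.2 ± 3.1 CPM in DMSO and 71.2 ± 1.4 with olaparib (log2 fold change 0.24, adjusted p = 0.0358), and 79.7 ± 4.3 with MNA without replicate 2 (0.41, adjusted p = 2.69e-05). Parp3 rose with MNA without replicate 2 by 1.21 (adjusted p = 1.17e-07) and Parp2 fell by 0.38 on the log2 scale (adjusted p = 3.12e-04). With olaparib Bst1, an enzyme that splits NAD at the cell surface, rose by 1.83 (adjusted p = 0.00705) and Tnks, a tankyrase, changed by -0.34 (adjusted p = 0.00934).

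The zinc-dependent deacetylases remove acetyl groups without NAD. Of 11, 10 were tested, with 0 up and 2 down with olaparib (edgeR, all 12 libraries, against 27.0% of all genes), 0 up and 2 down with MNA (28.6%), and 1 up and 4 down with MNA without replicate 2 (54.1%). Hdac10, known as a polyamine deacetylase, went from 5.73 ± 0.67 CPM in DMSO to 3.55 ± 0.55 with olaparib (log2 fold change -0.69, adjusted p = 0.0212) and 3.18 ± 0.77 with MNA without replicate 2 (-0.85, adjusted p = 0.00193). Hdac4 fell with olaparib (-0.38, adjusted p = 0.0301) and with MNA without replicate 2 (-0.42, adjusted p = 0.00189), but did not pass with MNA with all 12 libraries (-0.30, adjusted p = 0.0643). Hdac2 was at -0.19 with olaparib, not called with all 12 libraries (adjusted p = 0.0986) and called without MNA replicate 2 (adjusted p = 0.00494). Hdac6, a tubulin deacetylase as Sirt2 is, was at 0.43 with MNA without replicate 2 (adjusted p = 0.00186) and did not pass with all 12 libraries (0.32, adjusted p = 0.0789). The MNA calls on the other named genes of the lists, made without replicate 2, were also made with all 12.

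Of 30 partners and substrates of sirtuins, 28 were tested, with 8 up and 7 down with olaparib (27.0% of all genes), 6 up and 8 down with MNA (28.6%), and 10 up and 10 down with MNA without replicate 2 (54.1%). With olaparib without MNA replicate 2 the count was 10 up and 10 down, against 43.7% of all genes. Acss2, the cytoplasmic acetyl-CoA synthetase that Sirt1 deacetylates, rose from 10.8 ± 2.1 CPM in DMSO to 50.3 ± 5.5 with olaparib (log2 fold change 2.23, adjusted p = 0.00215) and 41.8 ± 3.6 with MNA without replicate 2 (1.97, adjusted p = 2.83e-08). Nfe2l2, the regulator of the oxidative stress response, rose with MNA without replicate 2 from 356.9 ± 44 to 887 ± 48 CPM (1.31, adjusted p = 2.73e-08). Tfam, which maintains mitochondrial DNA, fell in the same comparison (-0.65, adjusted p = 4.84e-06). With olaparib Sdha, a subunit of succinate dehydrogenase and a target of Sirt3, rose by 0.41 (adjusted p = 7.02e-04), and Polr1b, a subunit of the RNA polymerase that Sirt7 associates with, changed by -0.46 (adjusted p = 0.00388). The median log2 fold change with olaparib was 0.10 for the NAD supply list, 0.23 for the other NAD consumers, -0.04 for the zinc-dependent deacetylases and -0.03 for the partners and substrates, against 0.00 over all genes. With MNA without replicate 2 it was 0.14, 0.08, -0.07 and -0.11, against 0.00 over all genes.

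**Figure D4:**
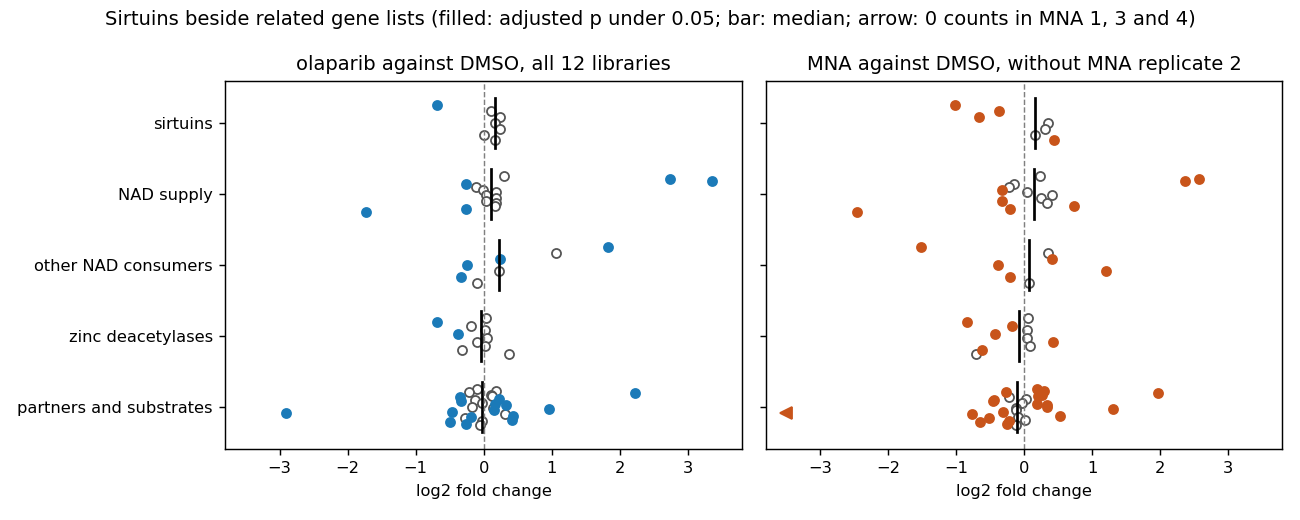
Log2 fold change (horizontal axis) of every tested member of the sirtuins and of 4 related lists, for olaparib against DMSO with all 12 libraries and MNA against DMSO without MNA replicate 2, filled where the adjusted p was under 0.05, with a bar at each median. Each list held members on both sides of 0, and the sirtuin medians were 0.17 and 0.16. The arrow is Ppargc1a, named after its values were seen, which had 0 counts in MNA replicates 1, 3 and 4, so that its fold change has no fixed size.

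Markers of other cells moved with MNA, and their part in the sirtuin results was not tested. Of 8 neutrophil markers 4 were tested and all 4 were up with MNA without replicate 2, where 54.1% of all genes were called. Ngp, S100a9 and Ltf passed the filter through MNA libraries and DMSO replicate 1. They were at 0 to 0.201 CPM in DMSO replicates 2, 3 and 4. Their direction was thus largely set by the filter, and their count cannot be weighed against that share. With all 12 libraries 3 neutrophil markers were tested and edgeR called none of them (adjusted p 0.0857 to 0.153, with 2 at an unadjusted p under 0.05). S100a8 was at 1.11, 1.54 and 13.2 CPM in MNA replicates 1, 3 and 4, against 1.11 to 2.77 in DMSO, so that replicate 4 stood out. S100a9 was at 1.11, 2.70 and 20.8 CPM in the same MNA libraries. In DMSO S100a9 was at 2.39 CPM in replicate 1 and at 0 to 0.067 in replicates 2, 3 and 4. The erythroid gene Hba-a1 was at 48.3 CPM in MNA replicate 4, 0 in the other 3 MNA libraries and 2.67 in DMSO replicate 1. With both MNA replicates 2 and 4 left out, Sirt1, Sirt2, Sirt3 and Sirt7 were still called with MNA. MNA replicates 1 and 3 also held neutrophil transcripts, but so did DMSO replicate 1. S100a9 was at 1.11 and 2.70 CPM in these 2 MNA libraries and at 2.39 CPM in DMSO replicate 1. The part of such cells stays untested. The 8 neutrophil markers summed to 1.34 to 10.0 CPM in DMSO and 2.93 to 3.89 in olaparib, with Ly6g at 0 in all of these libraries. They summed to 4.69 to 65.4 CPM in MNA replicates 1, 3 and 4 and to 1.33 in replicate 2. Of 5 B cell markers 3 were tested and all 3 were up with MNA, with all 12 libraries (28.6% of all genes called) and without replicate 2 (54.1%). Of these, Ms4a1 passed the filter largely through MNA replicates 1, 3 and 4, so its direction was in part set by the filter. The 5 B cell markers summed to 0.281 to 1.68 CPM in DMSO and 3.30 to 6.83 in MNA replicates 1, 3 and 4. With all 12 libraries 1 of 4 tested dendritic cell markers (Ccr7) and 1 of 2 T cell markers (Cd3e) were up with MNA. Cd3e was at 0 to 0.0688 CPM in DMSO and 0.430 to 0.764 in MNA. Ccr7 was at 0.0335 to 0.381 CPM in DMSO and 0.430 to 10.6 in MNA. Both passed the filter mainly through treated libraries, so their direction was largely set by it. The 1 stromal marker tested, Cdh5, was down with MNA, and the 1 mast cell and basophil marker tested, Gata2, was not called. With olaparib Ccr7 and Cd3e were up, with the same limit, and Xcr1 was down, against 27.0% of all genes called. Of 4 eosinophil markers 1 was tested, Siglecf, and was up with olaparib with all 12 libraries, where 27.0% of all genes were called. The sums of 3.78 to 6.95 CPM in DMSO and 31.1 to 58.5 in olaparib were nearly all Siglecf. Prg2 and Epx were at 0 in olaparib. Of the 4 markers of alternative activation, 2 were called down with MNA with all 12 libraries (Arg1 and Chil3 were not, adjusted p = 0.0767 and 0.133, against 28.6% of all genes called) and all 4 without replicate 2, against 54.1%, in the same libraries in which Sirt1, Sirt2 and Sirt3 were low. With olaparib 0 of the 4 were called with all 12 libraries, against 27.0% of all genes. Their log2 fold changes were 0.31 for Arg1, 0.28 for Retnla, -0.25 for Mrc1 and -0.75 for Chil3. Without MNA replicate 2 only Chil3 was called down with olaparib, against 43.7% of all genes. Of the 9 macrophage markers, 5 were called up and 1 down (Cd68) with olaparib with all 12 libraries, against 27.0% of all genes. With MNA 3 were up and 0 down with all 12 libraries (28.6%). Without replicate 2, 4 were up and 2 down with MNA (Cd68 and Fcgr1), against 54.1%.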

How the data were processed

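RNA of 12 BMDM cultures was sequenced by the authors as 150-base single-end reads of stranded mRNA libraries. Per the study's methods and processing notes, STAR 2.5.2b aligned them to GRCm38.p5, and the deposited files hold raw read counts per Ensembl gene and library. The strand column used is not given in the sources used here. Gene positions and exon lengths came from GENCODE M21.

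Groups and numbers came from the sample labels. The main test was edgeR 4.0.16 (R 4.3.3) with filterByExpr (minimum count 10, total 15), TMM scaling and the quasi-likelihood F test, with all 12 libraries in 1 fit, called at an adjusted p under 0.05. The same fit was made without MNA replicate 2. SEs were derived from the F statistic and the 95% intervals are not adjusted for the number of genes. DESeq2 1.42.0, other scalings, no filter, a replicate block, 2 groups alone, a stricter threshold of 0.01 and leaving out each library were alternatives, and the scripts were tested on simulated data. Leaving out a further library beside MNA replicate 2 was chosen after seeing the data.

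Same-numbered olaparib and DMSO libraries deviated together across genes (r = 0.227, 0.172, 0.225 and 0.408 for numbers 1 to 4). Differences from the DMSO library of the same number are given as a description. The main test used the group alone, and the numbers entered only in the replicate block. The study's figure text names 4 donor mice and, for olaparib and its control, 4 replicates of each group. It does not say whether each library came from 1 mouse. P-values set a difference against the spread between these libraries, which may be a spread of cultures and not of mice. The named genes were all 7 sirtuins, from each list the 3 members with the smallest p in olaparib against DMSO and in MNA against DMSO without MNA replicate 2, and the 2 genes most correlated with each sirtuin. The members, lists and tests were chosen with earlier results of these data known.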

Additional observations from a re-analysis of the deposited data

Results flagged for a closer look

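The level of Sirt2 in MNA replicate 2, 106 CPM, lay apart from the other 3 MNA libraries (87.2 to 89.2 CPM), with a gap to the nearest of 0.896 of the range of the group, above the 95% critical value of Dixon's test. This was 1 of 21 sets of 4 libraries examined (7 sirtuins in 3 groups), and chance flags about 1 in 20. Sirt1 in the same library, at 44.7 CPM against 19.1 to 24.0, did not pass that limit. No cause was tested.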

How the results depend on the processing

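DESeq2, RLE scaling, library totals alone, no filter and the replicate block changed no call on a sirtuin. With olaparib against DMSO, fitting the 2 groups alone gave 1 sirtuin up and 5720 genes, MNA replicate 2 left out with the replicate block gave 1 up and 6116 genes, and the 0.01 threshold gave 0 down and 1382 genes. Leaving out 1 library gave 0 to 1 up, 0 to 1 down and 2152 to 5694 genes (5694 without MNA replicate 2). With MNA against DMSO, the 2 groups alone gave 0 up, 0 down and 0 genes by edgeR, where 4728 genes and 4 sirtuins had an unadjusted p under 0.05 and DESeq2 called 3056 genes and 4 sirtuins. The adjusted p of those 4 was 0.0645 to 0.0828. The 0.01 threshold gave 0 up, 0 down and 0 genes, MNA replicate 2 left out with the block gave 7165 genes, and leaving out 1 library gave 0 to 1 up, 0 to 3 down and 463 to 7042 genes, fewest without MNA replicate 3 and most without MNA replicate 2. With olaparib against MNA, the 2 groups alone gave 1808 genes, the 0.01 threshold 1166, MNA replicate 2 left out with the block 1 sirtuin down and 5742 genes, and leaving out 1 library 0 to 1 down and 1950 to 5503 genes.

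With MNA replicate 2 left out, leaving out a further library gave 0 to 1 sirtuin up with olaparib and 1 to 2 up with MNA.

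Sirt6 with olaparib turned to -0.0056 under library totals and -0.0051 without the filter, and ranged from -0.043 to 0.048 on leaving out 1 library (-0.050 to 0.049 with MNA replicate 2 also out). Between olaparib and MNA, Sirt1 was at 0.050 under the replicate block and 0.32 with MNA replicate 2 left out and the block, and ranged from -0.15 to 0.32 on leaving out 1 library, Sirt4 from -0.23 to 0.032 and Sirt5 from -0.14 to 0.0092. The cause was not tested.

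With the replicate block Sirt1 was at -0.69 with olaparib (edgeR, adjusted p = 0.0176) and -0.74 with MNA (adjusted p = 0.0193). Deviations of each library from its group mean were correlated across genes. For same-numbered MNA and DMSO libraries they correlated at 0.242, 0.114, -0.00938 and 0.277, and for same-numbered olaparib and MNA libraries at 0.0696, 0.137, 0.131 and 0.392. The MNA mean included replicate 2, so the MNA deviations also carry its difference from the other MNA libraries. Whether libraries of the same number share a donor was not tested. The low counts of Sirt3, Sirt4 and Sirt5 limit what their intervals can show.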
